A study of Mus musculus with 9 samples.

Results

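The interleukin-1 family cytokines and receptors were described in RAW264.7 cells, a mouse macrophage line established from tumor ascites, as 8 genes chosen by name from the 54532 genes of the expression table. They are the cytokines Il1a, Il1b and Il18, the antagonists Il1rn and Il18bp, and the receptor chains Il1r1, Il1r2 and Il1rap. RNA-seq was done on 3 libraries each of control cells with no treatment, of cells given LPS at 1 μg/ml for 6 h, and of cells given the same LPS together with G-CDs at 400 μg/ml for 6 h. LPS is bacterial lipopolysaccharide, which cells sense through the receptor TLR4, and G-CDs are carbon dots made from Glycyrrhiza. All libraries share the wild-type genotype and come from a single cell line. The libraries of the last group carry G-CDs in their titles, whereas their treatment field names LPS alone. No source used here says that the 3 libraries of a group came from separate cultures, so p-values measure the spread between these libraries, which may be technical.

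Interleukin-1α and interleukin-1β bind the receptor IL-1R1, which then recruits the accessory chain encoded by Il1rap and signals through MyD88 and IRAK kinases to NF-κB. The antagonist encoded by Il1rn occupies IL-1R1 without recruiting the accessory chain, and IL-1R2 is a decoy that binds the cytokines without signaling. Interleukin-18 acts through its own receptor pair and is captured in solution by the binding protein encoded by Il18bp. Interleukin-1β and interleukin-18 are made as precursors that caspase-1 cleaves, so transcript levels measure neither processing nor release.

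Their positions are given in GRCm38. Il1a (chr2:129299610-129309972, minus strand) and Il1b (chr2:129364570-129371139, minus strand) are neighbors separated by 54.6 kb. Il1rn (chr2:24336853-24351494, plus strand) lies on the same chromosome 104.9 Mb away. Il1r2 (chr1:40074079-40125231) and Il1r1 (chr1:40225080-40317257), both on the plus strand, are separated by 99.8 kb. Il18 is at chr9:50554827-50581840 on the plus strand, Il18bp at chr7:102014885-102018690 on the minus strand and Il1rap at chr16:26581704-26730117 on the plus strand.

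The sequences upstream of Il1a, Il1b and Il1rn are shown because these were the 3 members with the largest LPS responses and because they responded unequally to G-CDs. They were taken from RefSeq promoter windows (GRCm38.p6), begin 250 bases before a RefSeq start and stop before the first annotated exon base. Capitals mark matches to the motifs searched on both strands, which were NF-κB (by its consensus), AP-1 (TGANTCA), C/EBP (TTNNGNAA), interferon response (GAAANNGAA), antioxidant response (TGANNNNGC) and TATAAA. Positions count back from the base before the RefSeq start. The Il1a window is chr2:129309973-129310222 on the minus strand, that of Il1b chr2:129371140-129371389 on the minus strand, and those of Il1rn chr2:24336610-24336852 and chr2:24345041-24345287 on the plus strand, at 2 of its starts.
Il1a: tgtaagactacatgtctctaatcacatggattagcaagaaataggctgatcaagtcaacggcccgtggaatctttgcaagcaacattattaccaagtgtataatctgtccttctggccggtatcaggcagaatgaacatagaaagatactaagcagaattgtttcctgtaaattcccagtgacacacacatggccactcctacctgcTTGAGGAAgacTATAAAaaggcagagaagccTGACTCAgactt
Il1b: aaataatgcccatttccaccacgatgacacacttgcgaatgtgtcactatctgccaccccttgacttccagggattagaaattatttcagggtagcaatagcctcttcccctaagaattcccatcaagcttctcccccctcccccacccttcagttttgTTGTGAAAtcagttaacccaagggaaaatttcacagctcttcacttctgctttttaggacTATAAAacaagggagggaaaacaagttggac
Il1rn, upstream start: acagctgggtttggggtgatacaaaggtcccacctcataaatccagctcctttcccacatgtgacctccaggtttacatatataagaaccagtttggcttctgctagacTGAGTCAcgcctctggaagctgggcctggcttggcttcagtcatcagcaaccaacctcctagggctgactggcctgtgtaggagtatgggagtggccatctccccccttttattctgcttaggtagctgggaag
Il1rn, downstream start: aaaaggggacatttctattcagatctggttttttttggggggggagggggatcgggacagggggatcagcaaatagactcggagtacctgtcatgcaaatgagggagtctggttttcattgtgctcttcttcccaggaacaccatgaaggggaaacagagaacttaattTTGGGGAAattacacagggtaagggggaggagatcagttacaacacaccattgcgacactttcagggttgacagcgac
Il1a held a C/EBP match at -43 to -36, a TATAAA at -32 to -27 and an AP-1 match at -12 to -6. Il1b held a C/EBP match at -91 to -84 and a TATAAA at -31 to -26. Il1rn held an AP-1 match at -141 to -135 before the upstream start and a C/EBP match at -81 to -74 before the downstream one, with no TATAAA in either window. Among all 32851 RefSeq windows of this length, 6.75% held the AP-1 motif, 36.8% C/EBP, 12.4% TATAAA, 35.2% the antioxidant motif, 7.25% NF-κB and 7.13% the interferon motif. The last 3 motifs had no match in these 4 windows, which says only that those letters are not in them. Expression values are summed over all transcripts of a gene, so the forms of Il1rn that begin at different starts, and that encode secreted or intracellular antagonist, were not separated.

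The study also measured Il1b by qPCR, and the primers show where that assay reads the gene.
Forward: gcaactgttcctgaactcaact
Reverse: atcttttggggtccgtcaact
The forward primer lies in exon 2 (chr2:129370306-129370327) and the reverse primer in exon 3 (chr2:129369707-129369727) of Il1b-201, both in coding sequence, and they span 89 bases of the transcript. FPKM values cover the whole 1907 bases of Il1b exons.

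The values are FPKM as deposited, that is, fragments scaled to gene length and library size. Multiplied by gene length and divided by the value of 1 read in each library, they gave whole reads, with 14752400 to 17312255 reads on genes per library. The 9 macrophage markers checked were all present, at a summed 2660 to 5340 FPKM. The markers of 7 other cell types stayed at or below 2.15 FPKM in sum. That highest sum was for the neutrophil list, at 0.154 to 0.592 FPKM in control, 0.198 to 0.73 in LPS and 0.797 to 2.15 in LPS + G-CDs libraries. Of its 5 markers, Ly6g, Mpo and Elane were at 0 reads in every library. In the LPS + G-CDs group the libraries differed by gene length: against the group mean, the 500 tested genes nearest in length to Il1b lay at -0.28, -0.02 and 0.29 (log2) in replicates 1, 2 and 3, and those nearest to the long gene Il1rap at 0.30, -0.02 and -0.29. In the LPS group the same medians stayed between -0.03 and 0.03, and in the control group they were -0.06, -0.08 and 0.18 near Il1b and 0.12, 0.14 and -0.25 near Il1rap. In bulk RNA, fewer expressing cells and less RNA per cell cannot be told apart.

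In resting cells transcripts of Il1a, Il1b and Il1rn were scarce, and Il18 had the highest level of the members. Il1a was at 0, 0 and 0.0853 FPKM in the 3 control libraries, which is 0, 0 and 3 reads. Il1b was at 0, 0.0308 and 0 FPKM, a single read in the whole group. Il1rn was low but detected in each control library, at 0.665, 1.32 and 1.46 FPKM. Il18 was at 4.24, 5.81 and 10.2 FPKM. Il18bp (1.06, 0.660 and 0.668 FPKM) and Il1rap (1.18, 1.28 and 0.974 FPKM) overlapped with Il1rn in the order of levels. Il1r1 and Il1r2 had 0 reads in all 9 libraries, which allows up to 0.0341 FPKM of Il1r1 and 0.114 FPKM of Il1r2 in any of them (3 reads, counting error only).

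LPS raised Il1b and Il1a from near nothing, and Il1rn from a low level, to among the more abundant transcripts of the cell. Il1b reached 418, 432 and 420 FPKM and ranked 89 of 54532 genes by its group mean. Il1a reached 146, 159 and 138 FPKM, and Il1rn 136, 139 and 128 FPKM, so that the cytokine Il1a and the antagonist overlapped in level. No LPS library overlapped with a control library for any of these genes. Because the control groups held 3 reads of Il1a and 1 read of Il1b, folds are given as ratios of reads at equal library size, 5197 for Il1a (95% interval 1778 to 25206) and 43284 for Il1b (7768 to 1709690). These intervals cover counting error only.

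On the log2(FPKM + 1) scale, where low genes change less than in FPKM, the log2 fold changes by LPS were 8.72 for Il1b (SE 0.13, limma adjusted p = 2.1e-09), 7.17 for Il1a (SE 0.13, adjusted p = 4e-09) and 6.00 for Il1rn (SE 0.16, adjusted p = 2.5e-08). All p-values here are from limma with Benjamini-Hochberg adjustment over the 11585 tested genes, and n was 3 libraries per group.

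Il18, the cytokine with a resting level, rose less. Its LPS libraries were at 20.98, 23.7 and 27.6 FPKM, all above the control libraries, and the group means differed 3.57-fold (log2 fold change 1.76, SE 0.27, limma adjusted p = 0.0012). Il1rap, the shared accessory chain, was at 2.28, 3.003 and 2.47 FPKM with LPS, above each control library (log2 fold change 0.74, SE 0.18, limma adjusted p = 0.015). Il18bp was at 1.79, 1.46 and 1.80 FPKM, also above each control library (log2 fold change 0.58, SE 0.15, limma adjusted p = 0.016). Both calls depended on single libraries and on scaling, since TPM ended both (adjusted p = 0.088 in each). That of Il1rap was lost without LPS replicate 2 (adjusted p = 0.064) or control replicate 3 (0.05), and that of Il18bp without LPS replicate 1 or 3 or control replicate 2 or 3 (0.056 to 0.063).

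The 6 members with reads thus all passed the adjusted threshold of 0.05 in the upward direction, where 15.8% of all tested genes did. At the study's threshold (unadjusted p under 0.01 and over 1.5-fold) 5 passed, all but Il18bp, where 11.9% of tested genes were higher. In all 6 the LPS and control libraries did not overlap, where 27.4% of tested genes were higher without overlap. These counts are no support in themselves, because a gene was tested only with an FPKM of at least 1 in 3 libraries, and of these 6 only Il18 met that in the control libraries alone. The median log2 fold change of the 6 was 3.88, beside 0.02 over all tested genes, with the same reservation.

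**Figure D1:**
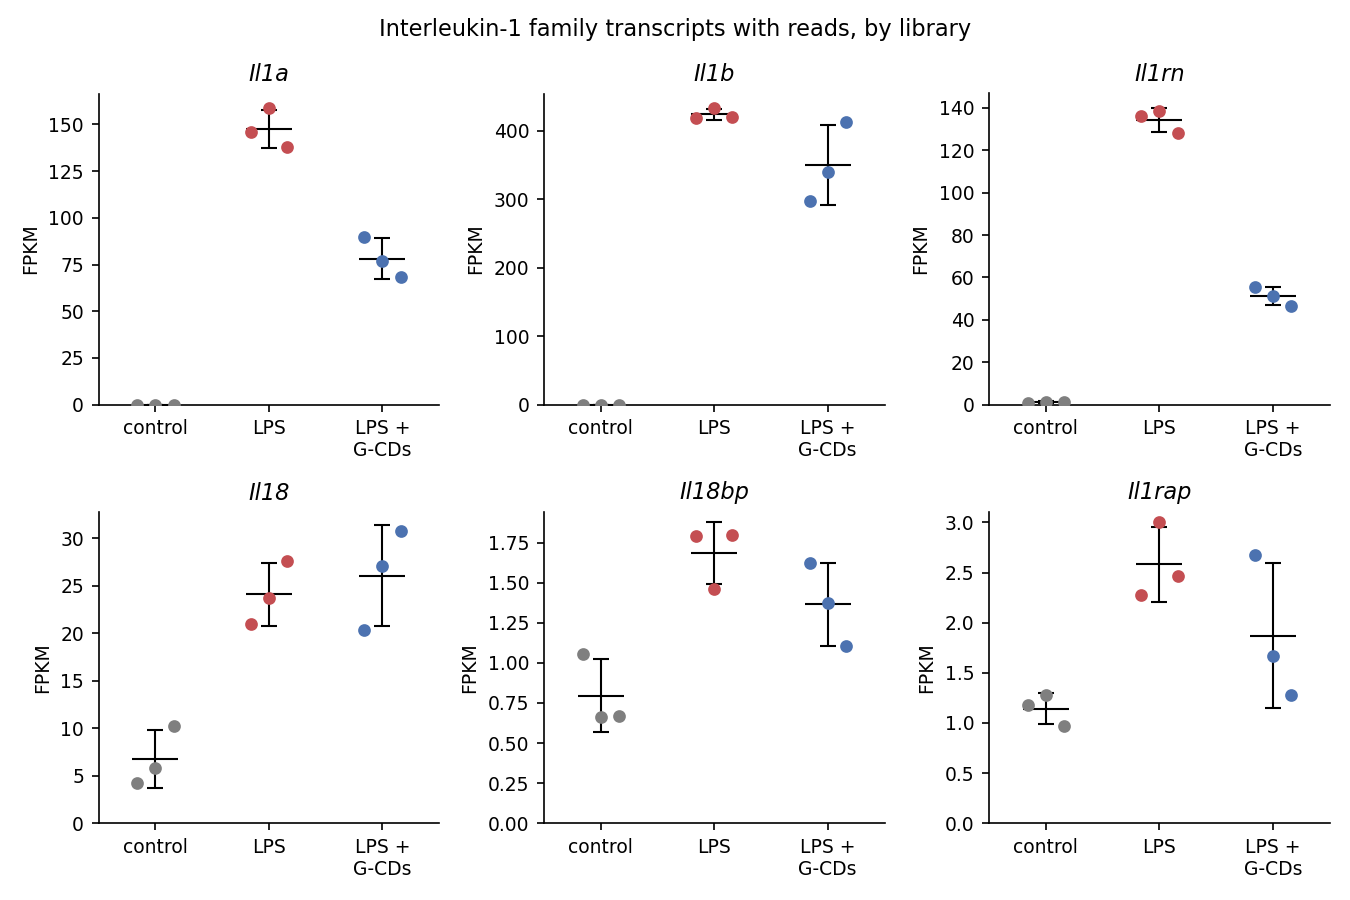
FPKM of the 6 members with reads in each library of the control, LPS and LPS + G-CDs groups, with separate linear vertical axes. Points are libraries (replicates 1 to 3 from left to right), horizontal bars are group means and whiskers the SD of 3 libraries. Il1a and Il1rn are clearly lower in all LPS + G-CDs libraries, Il1b is lower with a wide spread (297 to 412 FPKM), and Il18 overlaps between the treated groups.

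With G-CDs added to LPS, the antagonist Il1rn showed the largest difference among the members. Its LPS + G-CDs libraries were at 55.4, 51.4 and 46.7 FPKM, below the lowest LPS library (128 FPKM), and the group mean was 38.1% of that with LPS alone. The log2 fold change was -1.38 (SE 0.16, 95% interval -1.74 to -1.02, limma adjusted p = 0.009). Its rank by mean FPKM went from 362 to 1185 of 54532 genes. Il1a was at 89.7, 76.7 and 68.2 FPKM in the same libraries, below the lowest LPS library (138 FPKM), with a mean at 53.0% of that with LPS alone. The log2 fold change of Il1a was -0.91 (SE 0.13, 95% interval -1.20 to -0.62, limma adjusted p = 0.023).

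Il1b, which is separated from Il1a by 54.6 kb, moved less. Its LPS + G-CDs libraries were at 297, 339 and 412 FPKM, each below the lowest LPS library (418 FPKM), replicate 3 only narrowly. The mean was 82.5% of that with LPS alone, and the log2 fold change of -0.29 did not pass the threshold (SE 0.13, 95% interval -0.60 to 0.01, limma adjusted p = 0.33). The spread of Il1b in this group ran with that of genes of its length: its own deviations from the group mean were -0.22, -0.03 and 0.25 (log2), beside the medians of -0.28, -0.02 and 0.29 given above. After a trend on gene length was taken out of each library, the log2 fold change of Il1b was -0.54 (95% interval -0.77 to -0.31, limma adjusted p = 0.059), still short of the threshold. The part of gene length in these values was not tested further. Il1a, of nearly the same exon length (1974 bases), deviated the other way, at 0.21, -0.02 and -0.19. With the trend removed its log2 fold change was -1.15.

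The other 3 members with reads did not pass the threshold between LPS + G-CDs and LPS, and their groups overlapped. Il18 was at 20.3, 27.1 and 30.8 FPKM with G-CDs, a log2 fold change of 0.10 with a 95% interval of -0.51 to 0.71 (limma adjusted p = 0.83). Il18bp was at 1.62, 1.37 and 1.11 FPKM (log2 fold change -0.18, 95% interval -0.52 to 0.15, limma adjusted p = 0.46). Il1rap was at 2.67, 1.66 and 1.28 FPKM (log2 fold change -0.34, 95% interval -0.76 to 0.07, limma adjusted p = 0.35). Its deviations in this group, 0.38, -0.08 and -0.30, ran with those of long genes, and with the length trend removed its log2 fold change was -0.05. These intervals leave room for changes in either direction.

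Thus 2 of the 6 tested members, Il1rn and Il1a, passed the adjusted threshold of 0.05 downward, where 0.242% of all tested genes were lower. At the study's threshold the same 2 members passed, where 1.24% of tested genes were lower. In 3 of the 6 (Il1a, Il1b and Il1rn) the groups did not overlap, where 15.0% of tested genes were lower without overlap. The median log2 fold change of the 6 was -0.32, beside 0.02 over all tested genes. Both calls depended on single libraries and on the processing. With a pseudocount of 0.1 both were lost (adjusted p = 0.079 for Il1rn and 0.2 for Il1a), and that of Il1a also with TPM (0.091), with only the 6 libraries compared (0.079) and with voom (0.056). The call of Il1rn was lost without LPS + G-CDs replicate 2 (adjusted p = 0.066) or without LPS replicate 1, 2 or 3 (0.071, 0.077 and 0.053). That of Il1a was lost without LPS + G-CDs replicate 2 or 3 (0.15 and 0.056) or without LPS replicate 1, 2 or 3 (0.15, 0.17 and 0.095). The log2 fold changes themselves stayed between -1.54 and -1.31 for Il1rn and between -1.15 and -0.82 for Il1a under every processing tried.

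**Figure D2:**
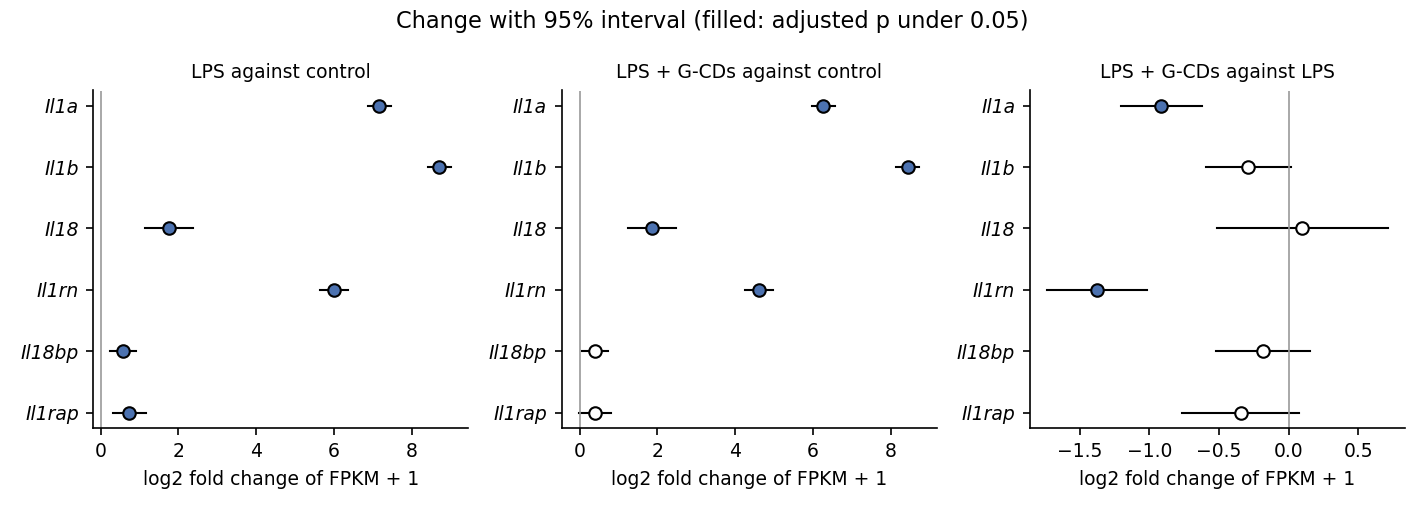
Log2 fold change of FPKM + 1 (horizontal axis) for the 6 tested members in 3 comparisons, with 95% intervals from limma over 9 libraries. Filled points have an adjusted p under 0.05, which holds for 6 members with LPS against control, 4 with LPS + G-CDs against control, and Il1a and Il1rn alone with LPS + G-CDs against LPS.

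**Figure D3:**
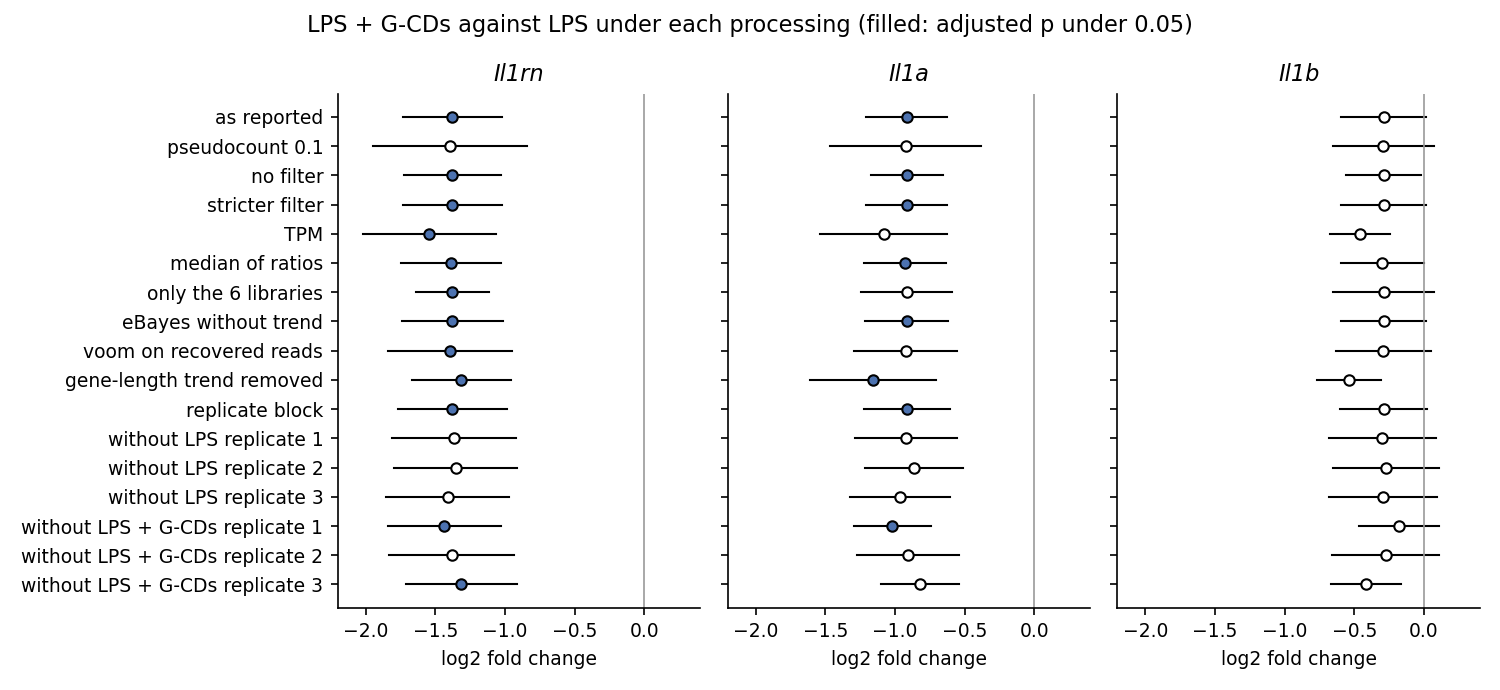
Log2 fold change with 95% interval (horizontal axes) of Il1rn, Il1a and Il1b between LPS + G-CDs and LPS, as reported and under each of 16 other processings or left-out libraries (rows). Filled points have an adjusted p under 0.05. All values lie below 0, Il1rn is filled in 11 of the 16, Il1a in 7 and Il1b in 0.

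Because the members did not move alike, their proportions differed between the treated groups. The ratio of Il1rn to Il1b was 0.326, 0.321 and 0.305 in the LPS libraries and 0.187, 0.152 and 0.113 in the LPS + G-CDs libraries, with no overlap. The ratio of Il1rn to Il1a was 0.911 ± 0.0324 with LPS and 0.658 ± 0.0357 with G-CDs (SD, n = 3), also with no overlap. The ratio of Il1a to Il1b was 0.349, 0.367 and 0.328 with LPS and 0.302, 0.226 and 0.165 with G-CDs. Each library with G-CDs therefore had a lower FPKM of antagonist per FPKM of interleukin-1 cytokine than any library with LPS alone. Il18bp to Il18 was 0.0707 ± 0.0129 and 0.0555 ± 0.0224 (SD, n = 3) in the same groups, which overlap. Il1rn has 5535 exon bases and Il1b 1907, and the LPS + G-CDs libraries differed by gene length. In replicates 1, 2 and 3 of that group Il1rn deviated from its mean by 0.12, 0.01 and -0.13 (log2), and Il1b by -0.22, -0.03 and 0.25. The part of gene length in the ratios was not tested. These ratios were chosen with the members' values known and are given as descriptions, without a test.

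**Figure D4:**
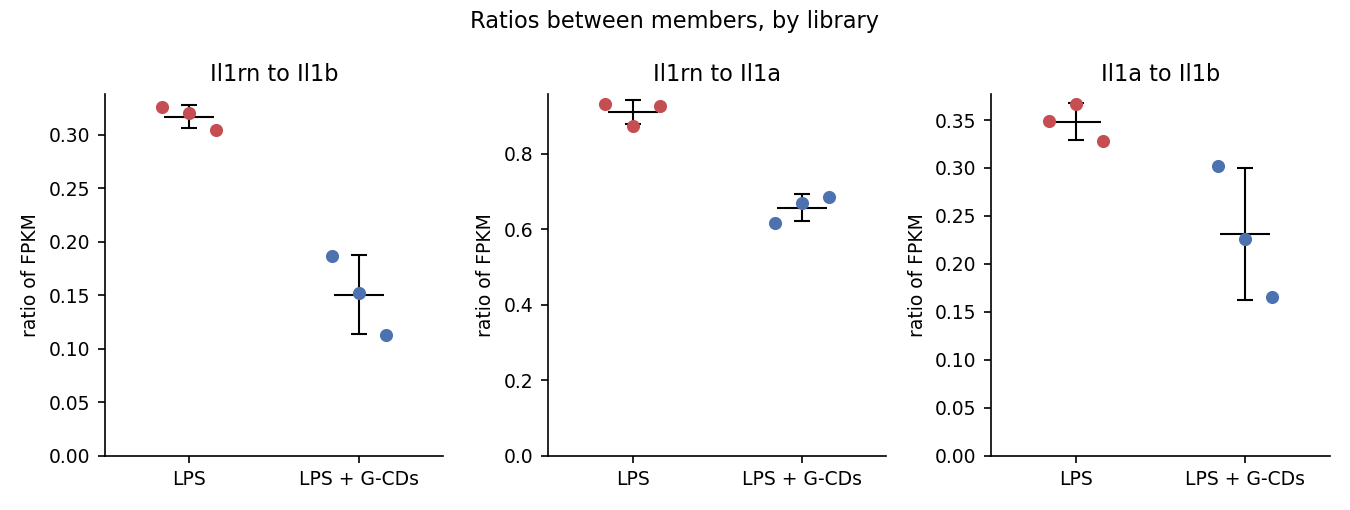
Ratios of FPKM between members (vertical axes, from 0) in each LPS and LPS + G-CDs library, with group means and SD of 3 libraries. The ratio of Il1rn to Il1b is 0.305 to 0.326 with LPS and 0.113 to 0.187 with G-CDs, and the groups do not overlap in any of the 3 panels.

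Compared with control cells, cells given LPS and G-CDs still held far more Il1b, Il1a and Il1rn. The log2 fold changes were 8.42, 6.26 and 4.62 (limma adjusted p = 2.9e-09, 8.8e-09 and 1.2e-07), and the mean of Il1rn was 44.6 times that of control cells. Il18 was 3.86 times its control mean (log2 fold change 1.86, SE 0.27, limma adjusted p = 0.0011). Il18bp (log2 fold change 0.40, limma adjusted p = 0.081) and Il1rap (0.40, adjusted p = 0.16) did not pass. Thus 4 of the 6 tested members were called higher, where 12.8% of all tested genes were. In all 6 the libraries of both groups did not overlap, where 17.7% of tested genes were higher without overlap. The reservation on the filter given for LPS against control holds here too, and this comparison shares its libraries with the other comparisons and is not separate evidence. The order of levels with G-CDs was Il1b, Il1a, Il1rn, Il18, Il1rap and Il18bp, and of these neighbors only Il1rap and Il18bp overlapped between libraries.

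The rest of the pathway was read from 5 lists of 43 genes, all found, of which 32 were tested. With LPS against control, 18 of the 32 were higher and 2 lower, where 15.8% and 15.6% of all tested genes were. Of the 32, 5 (Il33, Il36a, Il6, Lcn2 and Cxcl2) did not have an FPKM of at least 1 in all control libraries and were tested through the treated groups where they are high, so these counts are no support in themselves. Between LPS + G-CDs and LPS, 0 were higher and 3 lower in limma, where 0.25% and 0.242% of all tested genes were. At an unadjusted p under 0.05, 1 was higher and 12 were lower in limma, where 15.2% of all tested genes passed in either direction, and with voom on recovered reads 0 were called higher and 1 (Lcn2) lower. At the study's threshold 1 (Casp1) was higher and 6 (Il36a, Tnfaip3, Lcn2, Nfkbiz, Il1rl1 and Irak3) were lower, where 1.24% of all tested genes passed in each direction. The median log2 fold change of the 32 was -0.26 in that comparison, with 24 negative and 8 positive values, beside 0.02 over all tested genes. The gene-length differences among the LPS + G-CDs libraries given above apply to these genes too. The part of gene length in this median and in these counts was not tested.

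Among the other ligands of the family, Il33, an alarmin, and Il36a, a cytokine of the interleukin-36 branch, had 0 reads in all control libraries. Il36a lies 111.2 kb from Il1rn. It rose to 5.74, 5.17 and 3.58 FPKM with LPS (70, 63 and 46 reads), at least 75.8-fold over the group's floor of 3 reads, and was at 1.64, 1.57 and 1.85 FPKM with G-CDs (21, 23 and 23 reads). Its log2 fold change between LPS + G-CDs and LPS was -1.10 (SE 0.16, limma adjusted p = 0.024), a call kept in 6 of 15 alternatives and lost, among others, without LPS replicate 1 or 2 or LPS + G-CDs replicate 2 or 3. Il33 rose to 1.88, 3.14 and 2.74 FPKM with LPS, at least 133-fold, and was at 1.85, 1.54 and 1.63 FPKM with G-CDs (log2 fold change -0.41, limma adjusted p = 0.31). Il36g was too low to be tested, with 15, 7 and 3 reads in the LPS libraries and 39, 25 and 38 in the LPS + G-CDs libraries, all above the LPS libraries. It is named because it went opposite to Il36a, a choice made after its values were seen. Il36rn had at most 5 reads in a library, and Il36b and Il1f10 had 0 reads throughout.

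Of the other receptors, Il1rl1, the interleukin-33 receptor that pairs with the chain from Il1rap, rose with LPS from 8.32 to 19.3 FPKM (log2 fold change 1.15, SE 0.19, limma adjusted p = 0.0019). With G-CDs it was at 13.3, 10.6 and 8.55 FPKM, a log2 fold change of -0.80 that did not pass (limma adjusted p = 0.15). Sigirr, an inhibitory receptor of the family, fell with LPS from 3.84 to 1.04 FPKM (log2 fold change -1.23, SE 0.19, limma adjusted p = 0.0013). The interleukin-18 receptor was lopsided: Il18rap, its accessory chain, was at 9.01 to 16.1 FPKM in the 9 libraries, while Il18r1, its binding chain, had 3 to 9 reads. Il1rl2, Il1rapl1 and Il1rapl2 had 0 reads throughout. Both signaling receptors for interleukin-1 and interleukin-36, Il1r1 and Il1rl2, were therefore without reads in cells that held Il1a, Il1b and Il36a transcripts.

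In the maturation and release list, LPS raised 3 of the 5 tested genes, beside 15.8% of all tested genes. They were the inflammasome sensor Nlrp3 (log2 fold change 3.57), Casp4, the mouse sensor of intracellular LPS (2.64), and the DNA sensor Aim2 (0.76), with limma adjusted p-values of 9.5e-06, 2.1e-06 and 0.0039, and the call of Aim2 was lost with TPM (0.063). Pycard, the adaptor that links sensors to caspase-1 and that RAW264.7 cells are known to lack, had 2 to 21 reads per library. Nlrc4 was also below the filter. Between LPS + G-CDs and LPS 0 of the 5 passed in limma or voom (0.25% of all tested genes were higher and 0.242% lower). At an unadjusted p under 0.05 in limma Casp1 was higher and Nlrp3 lower, where 15.2% of all tested genes passed in either direction. Casp1, the protease that cleaves the interleukin-1β and interleukin-18 precursors, was at 18.5, 21.5 and 18.1 FPKM with LPS and 29.3, 31.8 and 41.1 FPKM with G-CDs, with no overlap, as for 12.9% of tested genes in this direction. Its log2 fold change of 0.77 did not pass the adjusted threshold (SE 0.20, 95% interval 0.32 to 1.23, limma adjusted p = 0.18), and it is named, after its values were seen, because it is the enzyme of these precursors. Over 16 alternatives its log2 fold change ran from 0.50 to 0.87 and its limma adjusted p from 0.058 to 0.53. The part of gene length in its values was not tested.

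All 15 genes of the signal chain were tested. With LPS, 5 were higher and 1 lower, beside 15.8% and 15.6% of all tested genes. The higher ones were led by the kinase Irak2 (log2 fold change 2.84), its relative Irak3, which restrains the pathway (2.11), and the TAK1 partner Tab2 (0.90), and Tab1, another TAK1 partner, was lower (-0.71), with limma adjusted p-values of 2.1e-07, 1.3e-05, 0.0097 and 0.004. The call of Tab2 was lost with TPM (adjusted p = 0.13). Between LPS + G-CDs and LPS 0 of the 15 passed in limma or voom (beside the same 0.25% and 0.242%). Of the 15, 11 had negative values, with a median of -0.26 beside 0.02 over all tested genes. At an unadjusted p under 0.05 in limma Irak3, Irak2 and Tab2 were lower, where 15.2% of all tested genes passed in either direction. Of the response genes, Cxcl1 had 2 reads in all and was not tested. Il6, Lcn2 and Cxcl2 were tested through the treated groups where they are high, so a count of rises is no support in itself. All 7 tested genes of this list rose with LPS, beside 15.8% of all tested genes. Those named by size on the log2(FPKM + 1) scale were the neutrophil chemokine Cxcl2 (log2 fold change 9.46), Ptgs2, the inducible cyclooxygenase (8.89), and Nfkbiz, a nuclear NF-κB cofactor (5.25), with limma adjusted p-values of 4.7e-09, 7.6e-08 and 7.6e-08. In FPKM the order differed, since the mean of Nfkbiz rose 48.9-fold, that of Lcn2 134-fold, and Il6, with 0 control reads, at least 802-fold. With G-CDs, 2 of the 7 fell, beside 0.242% of all tested genes. Tnfaip3, which encodes the NF-κB brake A20, was at 44.2, 43.6 and 41.5 FPKM with LPS and 23.8, 20.2 and 15.6 FPKM with G-CDs (log2 fold change -1.10, SE 0.18, limma adjusted p = 0.043). Lcn2, which encodes the siderophore-binding protein lipocalin-2, was at 15.7, 15.6 and 14.7 FPKM and then 6.14, 6.17 and 8.85 FPKM (log2 fold change -1.04, SE 0.14, limma adjusted p = 0.023). These calls were kept in 6 and 9 of 16 alternatives, and both were lost without LPS + G-CDs replicate 2 or without any 1 LPS library. Cxcl2 (log2 fold change 0.25, limma adjusted p = 0.44) and Il6 (-0.17, adjusted p = 0.47) did not pass.

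**Figure D5:**
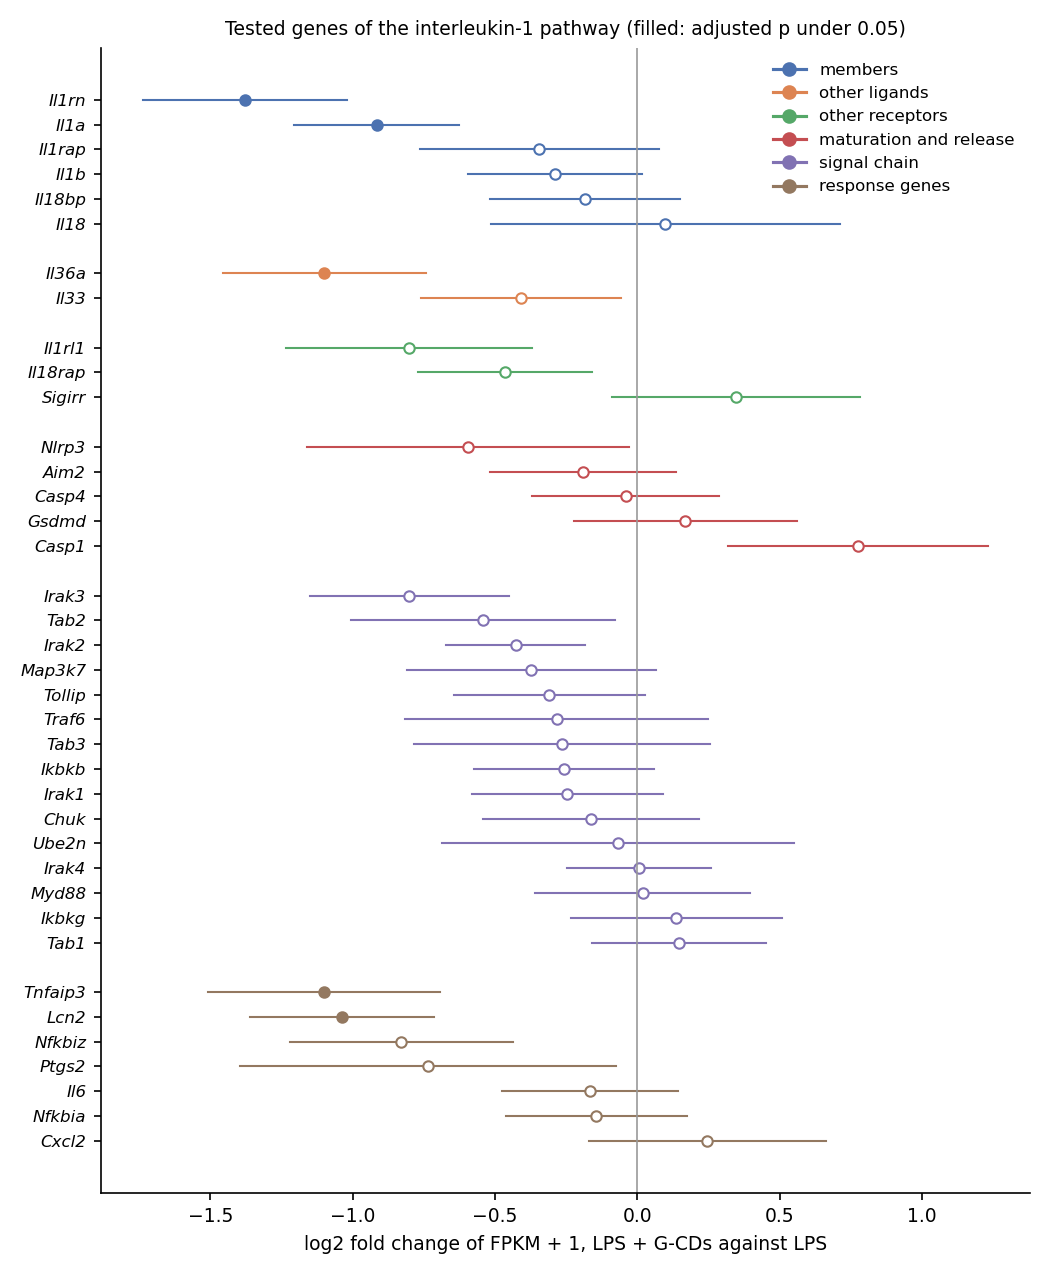
Log2 fold change of FPKM + 1 between LPS + G-CDs and LPS (horizontal axis) with 95% limma intervals for the 6 tested members and the 32 tested genes of the 5 pathway lists, colored by list. Filled points (Il1rn, Il1a, Il36a, Tnfaip3 and Lcn2) have an adjusted p under 0.05, and all of them lie below 0.

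With LPS + G-CDs against control, 16 of the 32 pathway genes were higher and 4 lower, where 12.8% and 12.4% of all tested genes were. Il33, Il36a, Il6, Lcn2 and Cxcl2, all among the higher ones, were tested through the treated groups where they are high. The count of higher genes is therefore no support in itself. The lower ones were Sigirr (log2 fold change -0.88), Tab1 (-0.56), Il18rap (-0.49) and the kinase Irak1 (-0.49), with limma adjusted p-values of 0.0091, 0.015, 0.027 and 0.039. Without LPS + G-CDs replicate 2 or 3 or control replicate 1 or 2, the calls of Il18rap (adjusted p = 0.063 to 0.093) and Irak1 (0.08 to 0.13) were lost. With only the 6 libraries compared, those of Il18rap (0.095), Irak1 (0.12) and Tab1 (0.062) were lost, as was that of Irak1 with no filter (0.065). The rises included those of Cxcl2 (log2 fold change 9.70), Nlrp3 (2.98) and Irak2 (2.41). Il33 and Il36a, with 0 control reads, were at least 85.9-fold and 26.5-fold higher. Casp1 was higher by 0.94 (limma adjusted p = 0.0086).

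The genes whose pattern over the 9 libraries was nearest to each member were found by the root mean square difference of log2(FPKM + 1), each gene centered on its own mean. For Il1a these were Lif, Csf2, Il27, Ccl22 and Pdgfb, at differences of 0.251 to 0.622. For Il1b they were Ccl5, Ptgs2, Acod1, Ccl3 and Cxcl2 (0.377 to 0.549), and for Il1rn Nos2, Ccl22, Nfkbiz, Mir155hg and Ccl2 (0.28 to 0.434). Il1rn was the 8th nearest gene to Il1a, and Il1b the 23rd. Around Il18 stood Ifitm3, Rab20, Anxa7, Evi2a and Herpud1 (0.168 to 0.202), around Il18bp Rrp12, Uba1, Cd300lf, Ythdc1 and Dhx8 (0.083 to 0.092), and around Il1rap Stam, Ccar1, Arl5b, Txlng and Rbm27 (0.071 to 0.093). The differences are smaller for members that change less, and libraries share their depth and scaling, so the lists describe these libraries only.

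Several members share exon sequence with a gene on the other strand, and the sources used here do not say whether reads were counted by strand. Il1a shares 222 exon bases with Gm14023, which had at most 33 reads in a library beside 3960 to 4323 for Il1a under LPS. Il1b shares 25 bases with its antisense gene Il1bos, which had 54 to 66 reads with LPS and 19 to 24 with G-CDs. Il18bp shares 80 bases with Numa1, which had 1501 to 6127 reads per library beside a total of 130 to 215 for Il18bp in a group, so the small values of Il18bp are uncertain. Il1rap shares 552 bases with Gm20319, which had at most 3 reads.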

How the data were processed

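RNA from 3 control, 3 LPS and 3 LPS + G-CDs libraries was sequenced, and the authors deposited FPKM values per gene with coordinates and gene lengths. The submitters' notes name GRCm38 (mm10), and the aligner, counter and strand setting are not given in the sources used here. Each FPKM column name matched 1 sample title, and 0 value columns went unused.

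FPKM was multiplied by gene length and divided, in each library, by the step that 1 read makes in these products, to recover reads (whole to within 0.05 in 100.0% of values). The library sizes these steps imply were 0.88 to 1.14 times the reads on genes. Genes reaching FPKM 1 in 3 or more of 9 libraries (11585) were fitted as log2(FPKM + 1) with limma 3.58.1 (R 4.3.3, eBayes with trend, 1 model of 3 groups, two-sided, Benjamini-Hochberg over all tested genes, threshold 0.05). The study states no RNA-seq test, and its threshold was a second rule. The fit was also run on simulated data with independent noise drawn from the spread of the LPS libraries. Those libraries were the most alike (r of 0.987 to 0.988, beside 0.935 to 0.975 for LPS + G-CDs). That run therefore cannot show how the fit does with the wider spread and gene-length differences of the LPS + G-CDs group. Fold changes on this scale understate those of low genes. Gene coordinates and lengths of all 8 members equaled those of GENCODE mouse release 21. Promoters came from RefSeq (8 of 8 members matched). Tables were made with Python 3.11.15 and pandas 2.3.3.

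The members and lists were chosen with earlier results of these data known. All members were named, and from each pathway list up to 3 called genes per direction, every gene called between LPS + G-CDs and LPS, Pycard and genes at 0 throughout. Like genes were the 5 nearest.

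Replicate numbers are shared between groups. Correlations of deviations from group means between control and LPS libraries of equal number were 0.103, 0.137 and 0.113, all over 0.1, which counts as paired. The fits reported above nevertheless ignore replicate number. With a block on it, the genes called for LPS against control were 4104, beside 3630 without. For LPS and LPS + G-CDs the values were 0.095, 0.08 and 0.143, and for control and LPS + G-CDs 0.28, 0.057 and 0.653, and no pairing was taken for either. Alternatives were a pseudocount of 0.1, no filter, FPKM of at least 5, TPM, median-of-ratios scaling, only the 6 libraries compared, no trend, voom on recovered reads, the gene-length trend removed, blocking on replicate number, and leaving out each library.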

Additional observations from a re-analysis of the deposited data

How the results depend on the processing

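For LPS against control, Il1a, Il1b, Il1rn and Il18 kept their calls in all 16 alternatives. Il18bp lost its call in 5 of 15 and Il1rap in 3 of 15, TPM included (adjusted p = 0.088 in each). Between LPS + G-CDs and LPS, the 2 called members became 0 with a pseudocount of 0.1, 1 (Il1rn) with TPM, with only the 6 libraries or with voom, and 0 to 2 with a library left out. The 57 called genes became 25 with a pseudocount of 0.1, 37 with TPM, 25 with only the 6 libraries, 92 with the gene-length trend removed, 288 at the study's threshold and 10 to 276 with a library left out, lowest without LPS replicate 2 and highest without LPS + G-CDs replicate 1. At the study's threshold 144 genes were higher and 144 lower, and without LPS + G-CDs replicate 1 these were 573 and 794. The genes at an unadjusted p under 0.05 in limma went from 1765 to 4358 in the same step. The shares of all tested genes given for these 2 thresholds thus depend on that library. Against control, the 2927 genes called with LPS + G-CDs became 1811 with only the 6 libraries and 1916 to 3247 with a library left out. Leaving out a library or samples also leaves fewer degrees of freedom, and the cause of the other shifts was not tested.

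Il18 changed sign between LPS + G-CDs and LPS from 0.10 to -0.065 with TPM and to -0.17 with the length trend removed, and ran from -0.028 without LPS + G-CDs replicate 3 to 0.26 without replicate 1, never past the threshold. With the length trend removed, Il1rap became called for LPS + G-CDs against control (0.50, adjusted p = 0.015). TPM moved the median of all genes to -0.21 for LPS against control, -0.12 for LPS + G-CDs against LPS and -0.34 for LPS + G-CDs against control, and split the LPS calls into 1016 higher and 3141 lower, from 1827 and 1803, and those of LPS + G-CDs against control into 754 and 3301, from 1488 and 1439.

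With the replicate block the members called were 6, 2 and 4, as without it, and the genes called between LPS + G-CDs and LPS were 53. The block ended the call of Il36a in that comparison (adjusted p = 0.051). Each of the 6 LPS and LPS + G-CDs libraries correlated best with its own number, as did 6 of 6 control and LPS libraries but 4 of 6 control and LPS + G-CDs libraries, a hint from the data and not from the design.

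With 0 to 3 reads in a control library, depth limited the precision of the LPS folds of Il1a and Il1b. Il1r1, Il1r2 and Pycard, with 0 to 21 reads per library, were below the filter of FPKM 1 and were not tested.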
